A study of Homo sapiens with 28 samples.

Results

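The MYC domain was taken as the ATAC-seq regions of chromosome 8 that lie from 126010097 to 130996964 on GRCh37, which are 370 of the 154985 regions in the study and of the 8444 regions of chromosome 8. It was examined in 22 untreated myeloma cell lines, with 1 library each, and in 6 of these lines (Karpas620, KMS27, L363, MM1S, OPM2 and RPMI8226) that were also assayed on day 3 of treatment with 10 µM lenalidomide, a drug that directs the cereblon ubiquitin ligase to new substrates. The untreated lines were H1112, Karpas620, KMS11, KMS12BM, KMS12PE, KMS18, KMS20, KMS21BM, KMS26, KMS27, KMS28, KMS34, L363, LP1, MM1S, OCIMY5, OPM2, PCM6, PE1, RPMI8226, U266 and XG-6. All are established lines grown in the same medium, and none carries a genetic change made for the study. ATAC-seq uses a transposase to insert adapters into open chromatin, so reads in a region measure how accessible it is and also how many copies of it a line carries, which cannot be told apart here.

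MYC is a transcription factor that drives growth and ribosome production, and it pairs with MAX to bind DNA. It lies in a gene-poor stretch of chromosome 8 whose non-coding DNA holds enhancers used in different tissues, and the neighbouring non-coding gene PVT1 starts just downstream of it. In myeloma this stretch is a common site of rearrangement, which can place MYC beside the enhancers of other genes or change its copy number.

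Levels are given as CPM, counts scaled to a library's total in all regions, and a region is said to be called in a line where the authors' table records a peak of that library within it. Library totals ran from 1599857 to 5564534 counts in the untreated lines, and between 40 and 153 members of the domain were called per untreated library. The starts of 6 plasma cell genes (SDC1, TNFRSF17, IRF4, PRDM1, XBP1 and CD38) were called in 18 to 22 of the 22 lines. Those of the B cell genes MS4A1 and PAX5 were called in 2 and 3 lines, that of CD3E in 1 line and that of CD14 in 2 lines. CD2 and LYZ had no region at their start.

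The untreated libraries labelled KMS34 and PE1 were about as alike as libraries of a single line. Over the 370 regions their log2(CPM + 1) values had a Pearson r of 0.91, against 0.85 to 0.92 between the untreated and lenalidomide libraries of the same line and 0.82 for the next most alike lines, KMS28 and KMS34. Over all regions the r of KMS34 and PE1 was 0.90. Tests over the 22 lines are therefore also given without PE1 where the call depends on it. KMS12BM and KMS12PE, whose names share a line number, had an r of 0.79 over the domain, the fourth highest of 231 pairs of lines. Both were counted as separate lines in the tests over 22 lines. The within-line differences of the MYC and PVT1 starts and segments kept their call when any single line was left out. Each of the 6 lenalidomide libraries was most like the untreated library of its own line.

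A smaller share of the domain's regions lay at promoters than over all regions, and they were spread over the lines much as all regions were, with fewer called in every line. The authors' annotation placed 8.11% of its regions at promoters and 53.0% between genes, compared with 19.98% and 35.2% of all regions. Median width was 446 bp in the domain and 420 bp over all regions. Of the 370 regions, 22 (5.95%) were called in no untreated line, 133 (35.9%) in a single line, 29 (7.84%) in 19 or more and 6 (1.62%) in all 22. Over all 154985 regions the corresponding shares were 8.06% in no untreated line, 37.1% in a single line, 7.09% in 19 or more and 3.98% in all 22. The members' counts depend on the call: with a level of at least 2, 5 or 10 CPM in its place, 19, 75 or 57 were accessible in a single line and 35, 18 or 10 in all 22, and without H1112, PCM6 and KMS20 86 were called in a single line.

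The 6 regions called in every line lay in 3 stretches of the domain. A set of 4 was in the first megabase, at the shared start of KIAA0196 and NSMCE2 (126103322 to 126104336), at the start of TRIB1 (126441486 to 126442937) and in the gene-poor stretch beyond TRIB1 (126648938 to 126650254 and 126710559 to 126711482). The fifth was at an internal start of PVT1 (128901975 to 128902795) and the sixth at an annotated start inside FAM49B (130951531 to 130952679). When PE1 was left out, 134 regions were called in a single line and 7 regions were called in all of the remaining 21 lines.

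Regions called in a single line came mostly from a few libraries. H1112 had 39 of them, PCM6 24 and KMS20 16, which is 79 of the 133. KMS26, KMS34 and L363 had 0. H1112 and KMS20 were also the most deeply counted untreated libraries and had the most called regions over the genome, 58983 and 54387. KMS12PE and KMS12BM, the next deepest, had 2 and 5 such members, and PCM6 had 2150806 counts, below the median of 2239819, and the part of depth was not tested. In H1112, 25.5% of its called members were called in no other line, compared with 23.4% of its called regions genome-wide. These shares were 21.6% and 16.6% in PCM6, and in KMS20 the domain's share was the lower, at 11.4% against 13.5%.

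**Figure D1:**
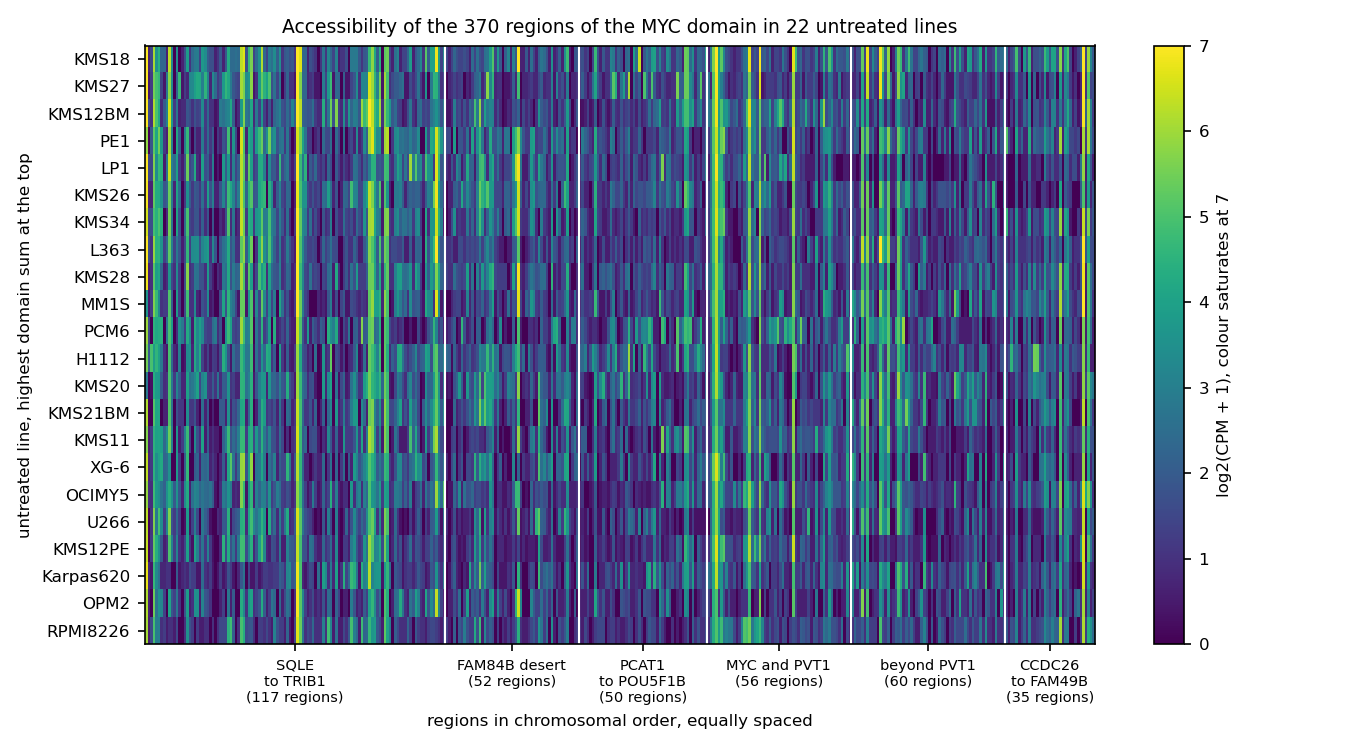
Accessibility of the 370 regions of the MYC domain (columns, in chromosomal order and equally spaced) in the 22 untreated lines (rows, ordered by the summed CPM of the domain), as log2(CPM + 1). Bright columns that run through all rows are the starts of TRIB1 and MYC, an annotated start inside FAM49B and a few non-coding regions. Most other columns are bright in some rows only.

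Sequence was compared by composition and by 3 motifs searched on both strands of each region. Median GC content was 44.5% in the domain, 45.7% in the rest of chromosome 8 and 46.9% over all regions. The ETS-IRF composite motif, bound by PU.1 or SPIB together with IRF4 or IRF8, was found in 36 members (9.73%) and in 7.04% of all regions. The core of the CTCF motif was found in 17 members (4.59%) and in 6.59% of all regions, and the MYC-MAX E-box CACGTG in 23 members (6.22%) and in 7.95% of all regions. By segment, the ETS-IRF motif was in 13 of the 60 regions beyond PVT1 and in 1 of the 52 regions of the FAM84B desert. Among the 29 regions called in 19 or more lines it was present in 8, and in 11 of the 155 called in 1 line or none, although median widths were 952 bp and 264 bp, so longer sequence was searched in the former. The CTCF core was in 0 of the 29, 15 of the 186 called in 2 to 18 lines and 2 of the 155. A match is a description of the letters and not of binding.

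Members were next followed gene by gene, in chromosomal order, over the untreated lines. At the start of SQLE, the squalene epoxidase of cholesterol synthesis (126010097 to 126011170), levels ran from 6.02 CPM in KMS20 through a median of 79.2 to 248 CPM in KMS18. MM1S was also low, at 10.99 CPM, and the next line up, H1112, had 44.2 CPM. These 2 lines were thus separated from the other 20, and MM1S stayed low in its lenalidomide library, at 10.2 CPM.

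The shared start of NSMCE2, a SUMO ligase of the SMC5/6 complex, and KIAA0196, a subunit of the WASH complex, was lower and more even. It ran from 14.0 CPM in H1112 through a median of 36.5 to 70.0 CPM in KMS12BM, with an SD of 0.58 on the log2 scale over the 22 lines. The start of TRIB1, a pseudokinase that acts with the COP1 ubiquitin ligase, had the highest mean log2(CPM + 1) of the domain. It ran from 55.1 CPM in OCIMY5 through a median of 106 to 357 CPM in KMS18, and KMS27 and L363 followed at 265 and 245 CPM.

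Several regions without a gene start were among the 10 with the highest mean, at lower levels than the TRIB1 and SQLE starts. In an intron of NSMCE2 (126296306 to 126297705) the level was 2.78 CPM in Karpas620, against 13.1 CPM in the next line, with a median of 39.2 and a highest value of 93.1 CPM in PE1. Beyond TRIB1, the region from 126619759 to 126620914 ran from 6.95 CPM in LP1 through 41.6 to 161 CPM in KMS12BM. The region from 126710559 to 126711482 was among the most even, from 14.2 CPM in Karpas620 to 62.5 CPM in PE1 (SD 0.55 on the log2 scale).

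Gene starts in the FAM84B and PCAT1 stretches differed more between lines. At the start of FAM84B (127569943 to 127571089) the level was 1.78 CPM in KMS12PE, 3.68 in KMS12BM and 3.74 in XG-6, with a median of 37.4 and a highest value of 174 CPM in KMS18. A second region of FAM84B (127568665 to 127569250) had the largest SD of the domain, 1.87 on the log2 scale, and reached 67.7 CPM in LP1, 32.0 in KMS34 and 26.9 in PE1 with a median of 2.42 CPM. The region near an annotated start of PCAT1, a non-coding RNA (127860678 to 127861122), was called in 1 line and reached 16.7 CPM in PCM6, against 2.55 CPM in the next line, L363. Near an annotated start of POU5F1B, a retrogene of POU5F1 (128428524 to 128429112), the median was 4.22 CPM and MM1S was highest at 25.7 CPM. CASC8 had no region within 2500 bp of its start.

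The other members with a large SD were non-coding, and 2 of these 4 regions were highest in KMS12BM. The region from 126614025 to 126614623 reached 61.0 CPM in KMS12BM, 49.7 in PCM6 and 26.9 in RPMI8226 with a median of 1.46 CPM. The region from 127330473 to 127331387 was called in 13 lines and ran from 0.919 CPM in KMS11 to 56.5 CPM in KMS12BM. The region from 127817120 to 127817866 was listed at 0 in KMS34 and PCM6 and reached 36.9 CPM in KMS21BM, and that from 128568881 to 128569729 reached 46.9 CPM in KMS27 with a median of 2.15 CPM.

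The start of MYC (ENSG00000136997, 128747329 to 128748757) was called in 21 of 22 lines. Its levels ran from 31.3 CPM in OPM2, 32.6 in RPMI8226 and 34.5 in KMS21BM through a median of 77.4 to 118 in LP1, 120 in KMS27 and 135 CPM in KMS18. The range was narrower than that of most members: its SD of 0.59 on the log2 scale ranked 337th of 370. This rank takes no account of level. The MYC start was among the 10 members with the highest mean, whereas 155 of the 370 were called in 1 line or none. The adjoining start of CASC11, a non-coding gene that runs the other way (128746172 to 128746626), had an SD of 0.44, ranked 369th, and ran from 13.1 CPM in KMS21BM through 24.9 to 49.4 CPM in KMS18.

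PVT1 held 3 of the 10 regions with the highest mean log2(CPM + 1). Its first start (ENSG00000249859, 128806498 to 128808265) ran from 12.6 CPM in PCM6 through a median of 46.8 to 107 CPM in KMS18. The internal start (128901975 to 128902795) ran from 14.6 CPM in Karpas620 through 44.8 to 121 CPM in KMS18. An intronic region further in (129004919 to 129005875) had a median of 50.2 CPM and was highest in KMS18 at 105 CPM. In that intronic region RPMI8226 had 2.36 CPM, while the next lowest line, Karpas620, had 28.8 CPM, so RPMI8226 was separated from the other 21 lines, and the region was at 1.65 CPM in that line's lenalidomide library.

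Towards the end of the domain, the region near the start of the non-coding gene CCDC26 (130694183 to 130694702) ran from 1.22 CPM in KMS26 through 8.47 to 25.2 CPM in KMS18. An annotated start inside GSDMC, a gasdermin (130765017 to 130766422), ran from 2.61 CPM in LP1 and 4.08 in L363 through 28.0 to 70.0 CPM in MM1S. The 5' end of GSDMC in GENCODE is at 130798870, outside this region. An annotated start inside FAM49B, whose product binds RAC1, ran from 31.8 CPM in KMS26 through 78.6 to 331 CPM in KMS18, with KMS27 next at 175 CPM. KMS18 was therefore the highest line at the starts of SQLE, TRIB1, FAM84B, CASC11, MYC, PVT1, CCDC26 and FAM49B.

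**Figure D2:**
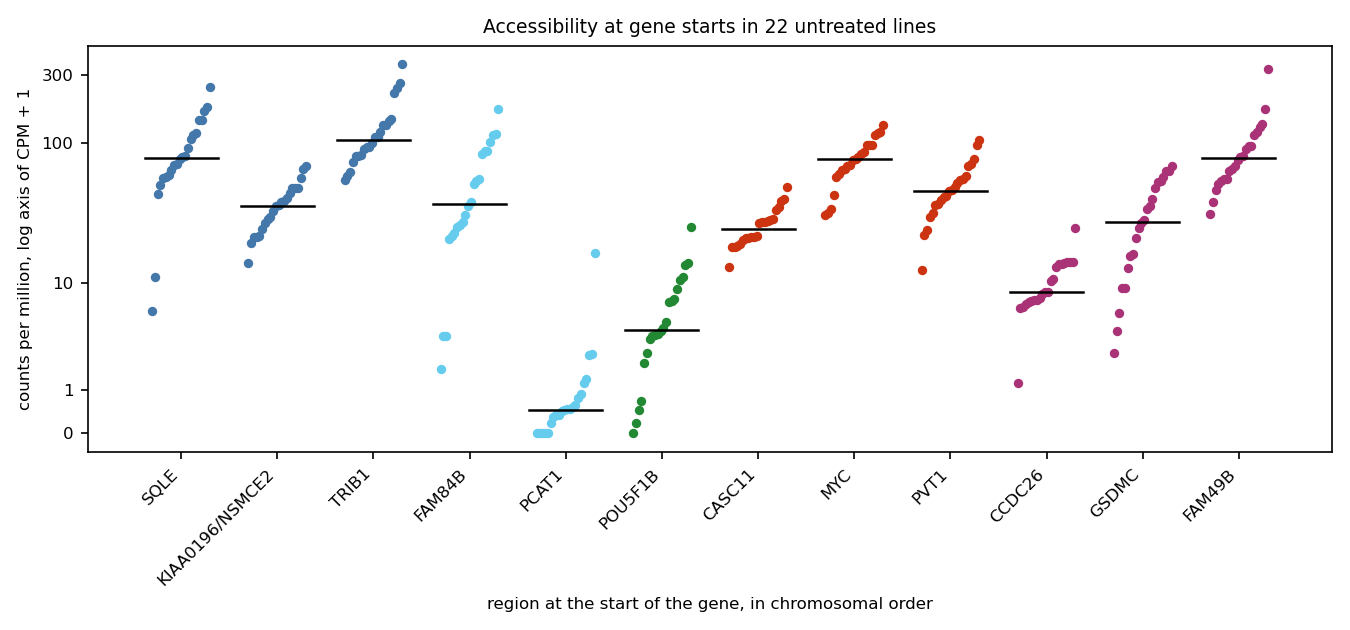
CPM at the region of each gene start (log axis of CPM + 1), with 1 dot for each of the 22 untreated lines, sorted within a gene, and a bar at the median. The regions of GSDMC and FAM49B are at annotated starts inside these genes. The starts of MYC and CASC11 span a narrow range (31.3 to 135 and 13.1 to 49.4 CPM), whereas FAM84B runs from 1.78 to 174 CPM and SQLE has 2 lines, at 6.02 and 10.99 CPM, below the rest.

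Within a line, the start of MYC was more accessible than the first start of PVT1. Per kilobase of region the means were 54.7 CPM for MYC and 28.6 CPM for PVT1, and the difference in log2(CPM per kb + 1) was 0.95 ± 0.71 (SD, n = 22 lines), positive in 20 of 22 lines (two-sided sign-flip permutation test with 100000 resamples, p = 1e-05, the smallest these resamples can give). It was largest in PCM6, at 2.64, and lowest in KMS21BM, at -0.13. Without PE1 the difference was 0.96. Across lines the levels at both starts had a Pearson r of 0.38 and a Spearman rho of 0.38 (n = 22 lines), and r was 0.31 without RPMI8226 and OPM2, the lines farthest from the median at MYC, as a description with no test.

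To set the parts of the domain against each other, its regions were summed in 6 segments of the chromosome. These ran from SQLE to TRIB1 (117 regions), over the FAM84B desert (52), from PCAT1 to POU5F1B (50), over MYC and PVT1 (56), beyond PVT1 (60) and from CCDC26 to FAM49B (35). Per kilobase of region, the MYC and PVT1 segment had a mean of 16.5 CPM, second to 19.7 CPM from SQLE to TRIB1. It was followed by 15.6 CPM from CCDC26 to FAM49B, 12.5 CPM beyond PVT1, 11.4 CPM in the FAM84B desert and 8.34 CPM from PCAT1 to POU5F1B.

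Differences between the MYC and PVT1 segment and the other 5 were tested within lines by the same permutation test, adjusted over the 5. It was below the SQLE to TRIB1 segment by a mean log2 difference of -0.24 ± 0.30 (SD, n = 22), with 4 lines above (adjusted permutation p = 0.002083). It exceeded the PCAT1 to POU5F1B segment by 1.01 ± 0.63 in 20 of 22 lines (adjusted permutation p = 0.0001), and KMS27, at -0.28, was the lowest line. It exceeded the FAM84B desert by 0.53 ± 0.56 in 18 of 22 lines (adjusted permutation p = 0.000275) and the segment beyond PVT1 by 0.43 ± 0.69 in 15 of 22 lines (adjusted permutation p = 0.007238). Against CCDC26 to FAM49B the mean difference was 0.14 ± 0.55 with a 95% interval of -0.10 to 0.38 and 8 of 22 lines above (adjusted permutation p = 0.251147), so no difference was shown.

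The domain as a whole was close to its chromosome. It had a mean of 15.2 CPM per kilobase against 13.9 CPM in the 8074 other regions of chromosome 8, a log2 difference of 0.10 ± 0.21 (SD, n = 22) that was positive in 15 lines (permutation p = 0.04277). This call was lost without PE1 (0.09, permutation p = 0.067639), and also when any of 12 other lines was left out, so it rests on single lines.

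Between lines, the summed level of the domain ran from 1739 CPM in RPMI8226 (95% Wilson interval, counting error only, 1684 to 1796) through a median of 2602 to 4872 CPM in KMS18 (4771 to 4976), a 2.80-fold range. KMS27 was second at 3609 CPM and OPM2 second lowest at 1866 CPM. Among neighbours in this order, 12 of 21 had overlapping counting intervals, and without repeat libraries the spread within a line is unknown. KMS18 had the highest sum in 4 of the 6 segments. Without it the range of the domain was 2.08-fold. Per kilobase KMS18 had 27.3 CPM in the domain, against a mean of 15.2 CPM over the 22 lines. Its domain exceeded the rest of its own chromosome 8 by a log2 difference of 0.41, the largest of the lines. Its other chromosome 8 regions were thus high as well.

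Segments varied more than the whole. The PCAT1 to POU5F1B segment ran from 56.7 CPM in RPMI8226 through 156 to 467 CPM in KMS27, an 8.24-fold range, and its share of the domain was 2.42% in L363 and 13.6% in H1112. The segment from CCDC26 to FAM49B ran from 87.4 CPM in KMS26 through 230 to 679 CPM in KMS18, a 7.76-fold range that was 4.21-fold without KMS18. Beyond PVT1 the level was 115 CPM in KMS12PE, 157 in LP1, 320 at the median and 705 CPM in KMS18. MYC and PVT1 ran from 244 CPM in OPM2 through 435 to 776 in KMS12BM and 779 CPM in KMS18, a 3.198-fold range, and the first segment from 717 CPM in RPMI8226 through 1089 to 1950 CPM in KMS18.

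Across lines the segments followed each other only in part. The sum over MYC and PVT1 had a Pearson r of 0.69 with the SQLE to TRIB1 segment, 0.38 with PCAT1 to POU5F1B, 0.15 with the FAM84B desert and -0.05 with the segment beyond PVT1 (Spearman rho 0.64, 0.35, 0.14 and -0.12, n = 22 lines). The level at the start of MYC had an r of 0.74 with the sum over its own segment, to which it contributes, 0.70 with the SQLE to TRIB1 segment and 0.09 with the segment beyond PVT1. Without the 2 lines farthest from the median, the r of MYC and PVT1 was 0.64 with the SQLE to TRIB1 segment (KMS27 and KMS18 left out) and -0.41 with the segment beyond PVT1 (OPM2 and KMS18 left out). The r of the MYC start with the segment beyond PVT1 was then -0.15 (RPMI8226 and OPM2 left out), so the values near 0 rest on those lines. These values describe 22 libraries scaled by their own totals, of which KMS34 and PE1 are the pair named above, and they carry no test.

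**Figure D3:**
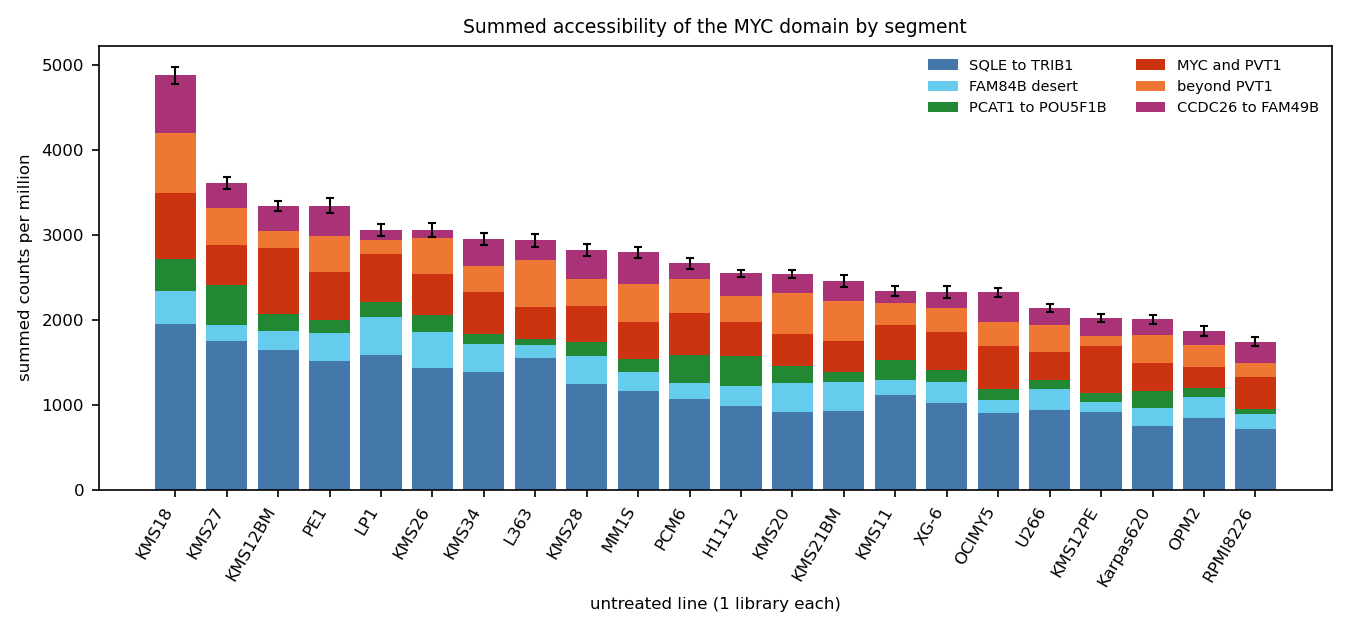
Summed CPM of the domain in each untreated line, stacked by the 6 segments, with 95% Wilson intervals of the total (counting error only). KMS18 stands above the other lines at 4872 CPM, and the segments from CCDC26 to FAM49B (87.4 CPM) in KMS26 and beyond PVT1 (115 CPM) in KMS12PE are thin beside those of lines of similar total.

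Reads in regions where a line had no called peak were also counted, since these regions hold background and weak accessibility. The count was divided by the number expected from the other lines that did not call those regions, after scaling each library by its uncalled reads genome-wide. Over the domain this ratio was 1.64 in KMS18 (exact 95% Poisson interval, 1.56 to 1.72), 1.36 in KMS27, 1.33 in KMS12BM and 0.74 in RPMI8226 (0.70 to 0.78). In the rest of chromosome 8 the same lines had 1.38, 1.18, 1.02 and 0.81. The lines with the highest and the lowest sums thus also had the highest and the lowest levels in uncalled regions, and the part of copy number in these sums was not tested.

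By segment the ratios departed from 1 in stretches. KMS26 had 0.30 from CCDC26 to FAM49B (0.22 to 0.41) and 1.04 to 1.46 in the other 5 segments. OPM2 had 0.36 over MYC and PVT1 (0.28 to 0.45) and 1.10 in the FAM84B desert. It was also below 1 beyond PVT1 (0.73), from CCDC26 to FAM49B (0.74), from PCAT1 to POU5F1B (0.80) and from SQLE to TRIB1 (0.83). LP1 had 0.47 beyond PVT1 and 0.60 from CCDC26 to FAM49B, against 1.05 over MYC and PVT1. RPMI8226 had 0.53 from SQLE to TRIB1 and 0.47 from PCAT1 to POU5F1B, and 1.24 over MYC and PVT1. KMS12PE had 0.57 beyond PVT1, 0.54 in the FAM84B desert and 1.25 over MYC and PVT1. The segments named here with ratios below 0.61 had sums below the median of the 22 lines, and these sums include the uncalled regions. RPMI8226 over MYC and PVT1 went the other way, with a sum of 375 CPM, below the median of 435 CPM, at a ratio of 1.24.

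**Figure D4:**
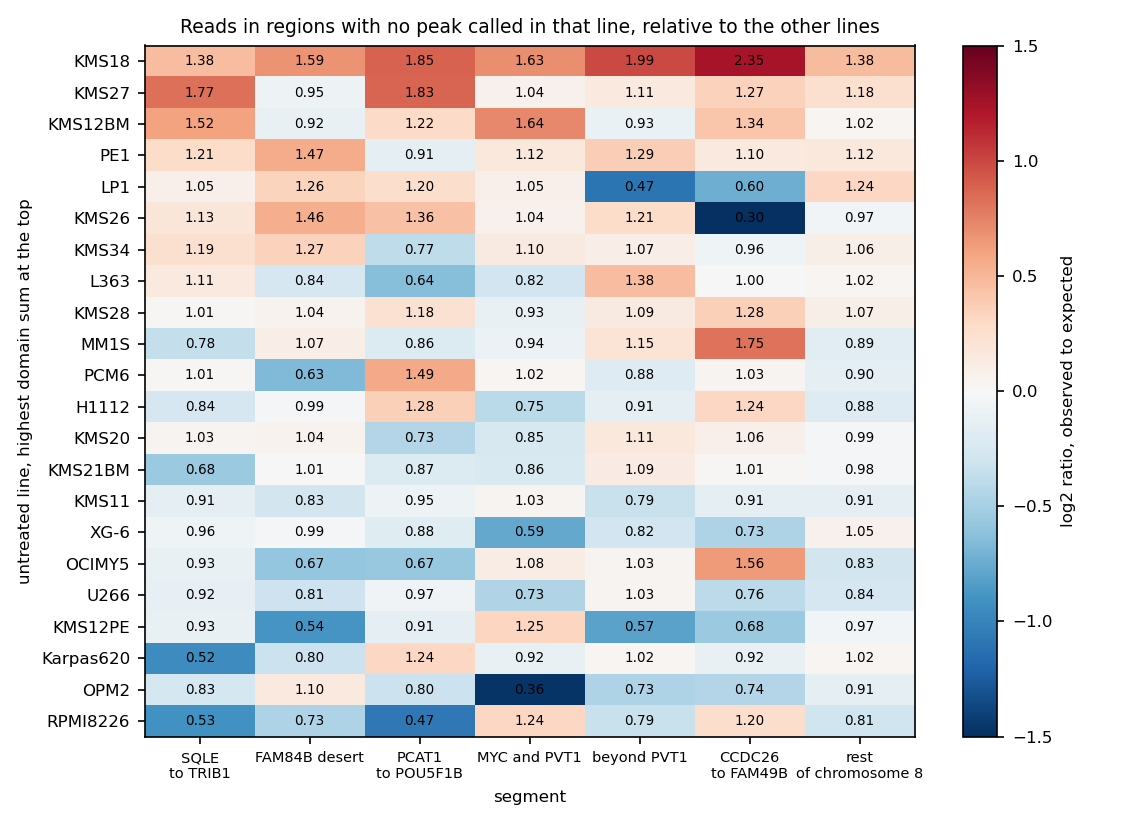
Ratio of observed to expected reads in regions with no peak called in that line, for each untreated line (rows) and each segment and the rest of chromosome 8 (columns). Red cells are above 1 and blue cells below 1 (colour on a log2 scale). The lowest cell is KMS26 from CCDC26 to FAM49B, at 0.30, and the highest is KMS18 in the same segment, at 2.35.

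The same stretches were traced region by region, as runs of neighbouring members that all lay on the same side of the median of the other 21 lines. The longest run of a line held between 4 and 32 regions above (median 11) and between 4 and 25 below (median 12). These runs were picked as each line's longest, so they are given as a description.

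KMS12BM had the longest run above, 32 regions from 126451903 to 126711482 beyond TRIB1 (260 kb). They summed to 702 CPM, against 241 CPM at the median of the other lines and 402 CPM in the next highest, KMS27. KMS12PE had 250 CPM there, so the lines with the shared number differed. More widely, of 47 members with at least 100 counts in KMS12BM and KMS12PE together, 37 were higher in KMS12BM, with a median log2 difference of 0.77.

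Karpas620 had the sharpest run below, 23 regions over 90.8 kb within NSMCE2 (126274823 to 126365597). They summed to 29.8 CPM, against 265 CPM at the median of the other lines and 110 CPM in the next lowest, OPM2, and 1 of the 23 was called. The lenalidomide library of Karpas620, which did not enter the choice of the run, had 25.8 CPM there, and the other 5 lenalidomide libraries had 73.7 to 288 CPM.

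In U266 a run of 24 regions below the other lines reached from 128399399 in CASC8 to 128748757, the end of the region at the start of MYC. They summed to 110 CPM against a median of 201 CPM, and the MYC start itself had 58.5 CPM. LP1 had 25 regions below from 129970098 to 130741123 (771 kb, 32.1 against 74.2 CPM), and KMS26 had 18 from 130560741 to 130902575 (27.5 against 84.2 CPM). For LP1 the next lowest line in its run was KMS26, at 43.4 CPM, and for KMS26 it was LP1, at 31.7 CPM.

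Lenalidomide was compared with no treatment within the 6 paired lines to ask which members changed. Of the 370 regions 97 had enough counts to be tested, and 6 passed an adjusted p of 0.05 over all 37732 regions tested (edgeR quasi-likelihood test with the line as a block), 1 raised and 5 lowered. Over all tested regions 5.40% passed, 4.17% raised and 1.22% lowered, while the domain's shares were 6.19%, 1.03% and 5.15%. Without adjustment 11 members (11.3%) were raised and 15 (15.5%) lowered at a p below 0.05, against 10.5% and 6.87% of all tested regions. All 6 lay in the SQLE to TRIB1 segment, which held 46 of the 97 tested members, and 0 of the 16 tested over MYC and PVT1 passed with edgeR or DESeq2 (2 without adjustment).

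Among the lowered regions, 3 were neighbours in introns of NSMCE2. The region from 126302515 to 126303155 went from 5.20 to 0.391 CPM in Karpas620, 46.9 to 36.6 in KMS27, 56.1 to 35.0 in L363, 39.5 to 27.6 in MM1S, 8.35 to 2.26 in OPM2 and 19.4 to 13.7 CPM in RPMI8226. It fell in 6 of 6 lines, with a log2 fold change of -0.66 (SE 0.18, edgeR adjusted p = 0.0198). The region from 126296306 to 126297705 had a log2 fold change of -0.56 (SE 0.16, edgeR adjusted p = 0.028) and was lower in 5 of 6 lines, from 65.8 to 45.2 CPM in KMS27 for example. The region from 126314981 to 126315651 had a log2 fold change of -0.66 (SE 0.20, edgeR adjusted p = 0.0461) and was also lower in 5 of 6 lines. Karpas620 was the exception at both, at 2.78 and 3.13 CPM in the former and 0.347 and 1.96 CPM in the latter, and all 3 regions lie in its run of low members, as does the raised region below.

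The remaining lowered regions were downstream of the TRIB1 start, the first of them within the gene. The region from 126446843 to 126447322, 1.05 kb from the nearest annotated TRIB1 start, went from 30.9 to 24.3 CPM in Karpas620, 51.3 to 30.1 in KMS27, 32.1 to 28.6 in L363, 42.2 to 35.9 in MM1S, 36.0 to 20.8 in OPM2 and 41.1 to 31.8 CPM in RPMI8226. It fell in 6 of 6 lines, with a log2 fold change of -0.44 (SE 0.12, edgeR adjusted p = 0.03). Beyond the end of TRIB1, the region from 126526905 to 126527650 had a log2 fold change of -0.86 (SE 0.25, edgeR adjusted p = 0.031), with 26.3 to 13.7 CPM in KMS27 and lower values in the other 5 lines as well. The TRIB1 start itself had a log2 fold change of 0.21 (SE 0.07, edgeR adjusted p = 0.0826) and was higher in 5 of 6 lines, which did not pass.

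The raised region, in NSMCE2 (126353452 to 126353953), had low counts. It went from 2.36 to 10.3 CPM in KMS27, 8.67 to 14.3 in L363, 1.72 to 4.36 in MM1S and 5.74 to 9.95 CPM in OPM2, and stayed at or below 1.04 CPM in Karpas620 and RPMI8226. Its log2 fold change was 1.05 (SE 0.30, edgeR adjusted p = 0.0299).

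At MYC the level was 77.7 and 64.6 CPM without and with lenalidomide in Karpas620, 120 and 109 in KMS27, 77.0 and 77.5 in L363, 65.6 and 50.5 in MM1S, 31.3 and 38.4 in OPM2 and 32.6 and 39.1 CPM in RPMI8226. It was higher in 3 lines and lower in 3, with a log2 fold change of -0.07 (SE 0.10, edgeR adjusted p = 0.791). The first start of PVT1 had a log2 fold change of 0.20 (SE 0.12, edgeR adjusted p = 0.405) and was higher in 4 of 6 lines. Of 12 starts of the MYC network (MYC, MYCN, MYCL, the partners MAX and MLX, the repressors MXD1, MXI1, MXD3, MXD4, MNT and MGA, and MLXIP), 0 passed with edgeR or DESeq2 or without adjustment, and their log2 fold changes lay between -0.29 and 0.11.

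These calls depended on the model. With DESeq2, 0 members were raised and 1 was lowered, and with no replicate block, where differences between lines enter the error, 0 passed in either direction, 0 of them even before adjustment. Leaving out a line left 0 to 3 raised and 1 to 5 lowered members. With KMS27, L363 or OPM2 left out 1 was lowered.

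**Figure D5:**
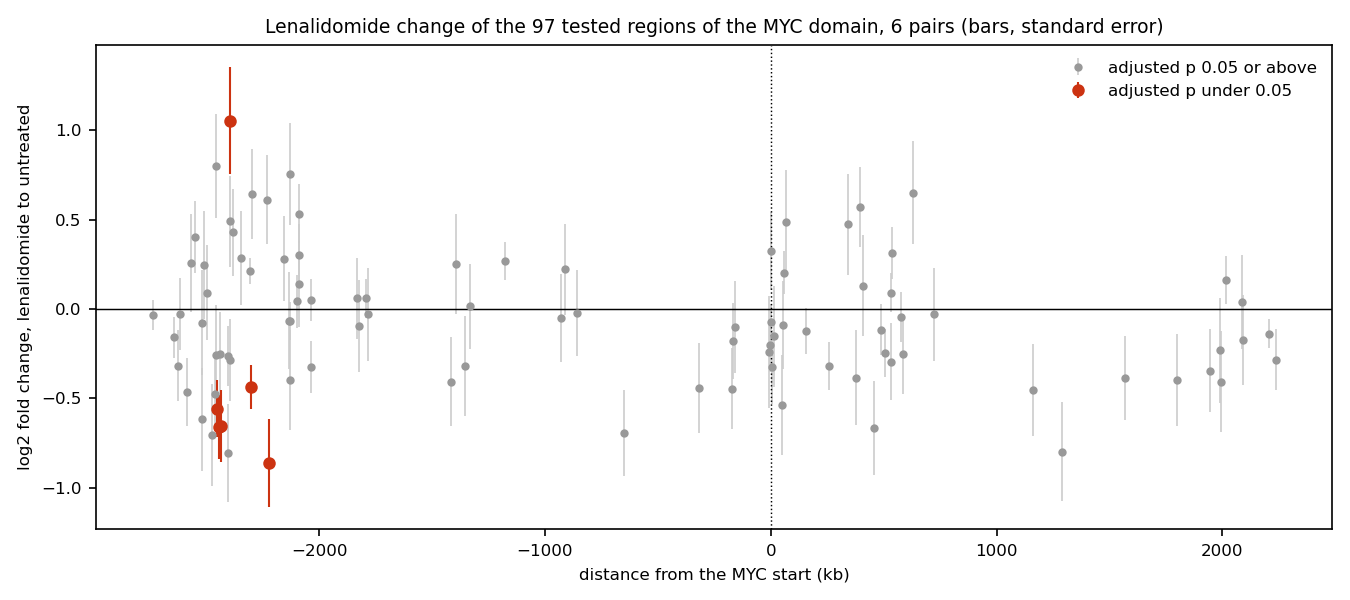
Log2 fold change after lenalidomide (edgeR, 6 pairs, bars show the standard error) of the 97 tested members against distance from the MYC start in kb. The 6 regions with an adjusted p below 0.05 (red) all lie more than 2000 kb upstream of MYC, with 5 below 0 and 1 at 1.05, and points around 0 kb lie on both sides of the zero line.

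Sums over the segments did not pass after adjustment. With 6 pairs, adjustment over 7 sums can be passed only where most sums reach the smallest possible p. A change of a segment is therefore neither shown nor excluded. The whole domain changed by a mean of -0.07 ± 0.06 on the log2(CPM + 1) scale (SD, n = 6 lines) and was lower in 5 of 6 lines (exact sign-flip permutation p = 0.0625, adjusted over 7 sums 0.109375). The PCAT1 to POU5F1B segment was lower in 6 of 6 lines by -0.32 ± 0.25, from -0.06 in Karpas620 to -0.73 in L363 (exact permutation p = 0.03125, the smallest 6 pairs allow, adjusted 0.109375). Over MYC and PVT1 the mean change was -0.0029 ± 0.08, with 4 lines higher (exact permutation p = 0.96875). Beyond PVT1 RPMI8226 changed by -0.65 and the other 5 lines by -0.16 to 0.20.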

How the data were processed

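The 28 ATAC-seq libraries come from 22 cell lines, 6 of them with a lenalidomide library. As deposited by the authors, reads were aligned to GRCh37 with Bowtie2 2.2.6, handled with SAMtools 1.7, and peaks called per library with MACS2 2.1.0.20151222 (versions per the submitters' processing notes). Whether read ends were shifted and whether duplicates were removed for ATAC-seq is not given in the sources used here. The authors merged the peaks into regions and deposited raw counts per region, the same values as RPM, and another table of whole numbers per region and library, read here as peaks within the region. The deposited RPM values equal the CPM computed here.

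CPM used each library's total in regions, log values a pseudocount of 1. Gene starts came from the authors' annotation (nearest region within 2500 bp where none overlapped), with GENCODE used for the gene ends, and motifs and GC from the GRCh37 genome. For PCAT1, POU5F1B, CASC11, GSDMC and FAM49B in the domain the 5' end in GENCODE lay more than 2500 bp from the region used. The same held for PRDM1, MXD1 and MGA outside the domain. The regions used for all these genes are at or near other annotated starts. The lenalidomide comparison used edgeR 4.0.16 (TMM, filterByExpr, line as a block, Benjamini-Hochberg over all tested regions) in R 4.3.3, with DESeq2 1.42.0 as an alternative. It was also run on simulated counts with known changes and the same dispersion for all regions. The outcome is not given here, so no support is drawn from it. The pairing comes from the labels, which give the same cell line for both libraries of a pair. Sums and within-line differences used two-sided sign-flip permutation tests in Python 3.11.15 with scipy 1.17.1, with 100000 resamples over 22 lines and exact over 6. Nothing says that libraries came from separate cultures, so p-values measure the spread between these libraries.

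The members, segments and lists were chosen with earlier results of these data known. Regions named are those at gene starts, the 10 with the highest mean, the 5 with the largest SD, those called in all 22 lines and those past the lenalidomide threshold. Comparisons between lines without a test, runs of neighbouring regions among them, are descriptions. No sequence of these regions is printed. Leaving out PE1, leaving out H1112, PCM6 and KMS20 together and drawing counts down to equal totals within pairs were alternatives chosen after seeing the data.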

Additional observations from a re-analysis of the deposited data

Results flagged for a closer look

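A sample far from the others was looked for in 22 sets of 6 values (lenalidomide changes and treated levels of the segments, and changes of 8 regions) with Dixon's criterion, which flags about 1 in 20 sets by chance. It marked 1. At the region from 126314981 to 126315651 in NSMCE2, Karpas620 was higher after lenalidomide by 1.13 on the log2(CPM + 1) scale, while the next value was -0.52, so the gap was 0.656 of the range. The level in Karpas620 was 0.347 CPM untreated and 1.96 CPM treated.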

How the results depend on the processing

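Within lines, the differences between the MYC and PVT1 starts and between the segments kept their direction and their side of the threshold under all 27 alternatives each. The difference between the domain and the rest of chromosome 8 did not: it was 0.0908 without PE1 and 0.0813 over regions called in at least 1 untreated library, past the threshold in neither, and 0.0841 to 0.118 when each line was left out. The count of members accessible in all 22 lines was 35 with at least 2 CPM in place of a call, 18 with 5 CPM and 10 with 10 CPM. Members accessible in a single line numbered 19, 75 and 57 at these levels and 86 without H1112, PCM6 and KMS20, and 219 members had 10 CPM in at least 1 line. With TMM scaling the fold from the lowest to the highest line was 3.08 for the domain, 3.12 from SQLE to TRIB1 and 10.5 from PCAT1 to POU5F1B. Leaving out each line gave folds of 2.08 to 2.80 for the domain, 2.44 to 2.72 from SQLE to TRIB1, 3.04 to 3.93 in the FAM84B desert, 6.53 to 8.24 from PCAT1 to POU5F1B, 2.38 to 3.198 over MYC and PVT1, 4.48 to 6.13 beyond PVT1 and 4.21 to 7.76 from CCDC26 to FAM49B, the lowest of these without KMS18, KMS18, KMS12PE, KMS27, OPM2, KMS12PE and KMS18.

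The lenalidomide change over MYC and PVT1, which passed no threshold, turned to 0.0405 with TMM scaling and to 0.0094 over regions called in at least 1 of the 12 libraries, and lay between -0.0216 and 0.0201 when each line was left out. Raised and lowered members numbered 1 and 5 in the reported comparison, 0 and 1 with DESeq2, 5 and 5 with no filter on low counts, 1 and 1 with at least 10 counts in each library (23 members tested) and 1 and 5 with each pair thinned to a common total. With no replicate block, ignoring the pairing, they numbered 0 and 0. Leaving out each line gave 0 to 3 raised, with 3 without RPMI8226, and 1 to 5 lowered. None of the 6 called members changed direction in any alternative that tested it. The cause of these shifts was not tested, and some of the alternatives also had fewer lines or regions. Depth left 273 of 370 members with too few counts to be tested.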
